A study of Homo sapiens with 24 samples.

Results

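Autophagy delivers cytoplasm to the lysosome inside a double membrane, the autophagosome. This account describes 40 genes of the process, chosen by name: the ATG8 family, cargo receptors, the kinase and membrane machinery that starts an autophagosome, the enzymes that conjugate ATG8 proteins to lipid, the transcription factors TFEB and TFE3, and 5 lysosomal proteins. All 40 were found among the 23284 rows of the expression table, and all 40 passed the filter on low values in every comparison. RNA was measured in 24 libraries from 6 lines labelled as hepatocellular carcinoma, namely HLE, SK-HEP1, Hep3b, HepG2, Huh1 and Huh7. Each of these lines gave 1 library to each of 4 groups: SFPQ knockdown with TGF-beta (2 ng/ml for 24 hours), SFPQ knockdown without it, control siRNA with TGF-beta, and control siRNA without it, written here as siSFPQ and siCTL cells. The labels call every line wild type, and all were grown in DMEM with fetal bovine serum. SFPQ binds RNA in the nucleus, where it is a core component of paraspeckles, and TGF-beta is a cytokine that acts through SMAD transcription factors; the series title places SMAD4 in SFPQ condensates. The 6 lines are the replicates and pair the libraries, so a p-value weighs the mean change against the spread of that change over the lines. Values are FPKM, fragments scaled to transcript length and to the mapped fragments of the library. Changes are on the log2(FPKM + 1) scale with limma's moderated standard error. That error draws the spread of a gene's change over the 6 lines toward the spread of other genes. The log2(FPKM + 1) scale understates the change of genes near or under 1 FPKM. A gene was called changed where limma's adjusted p was under 0.05.

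In outline, the ULK1 kinase complex receives signals from nutrient-sensing kinases and starts the process. A lipid kinase complex, built of PIK3C3, PIK3R4, BECN1 and either ATG14 or UVRAG, marks the growing membrane with a phosphoinositide that WIPI proteins read. ATG9A and the ATG2 proteins supply lipid. ATG7, ATG10 and ATG3 then act as ubiquitin-like enzymes: they build the ATG12-ATG5-ATG16L1 complex and attach LC3 and GABARAP proteins to the membrane, where cargo receptors bind them. TFEB and TFE3 switch on many lysosomal genes through an E-box sequence. The liver relies on this route in fasting, and in liver tumours autophagy has been tied both to restraint of tumour onset and to survival of established tumour cells.

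The promoter windows of 4 members are printed to show where the motifs counted in the next paragraph stand; no result rests on them. ULK1 and GABARAPL1 are the members called with TGF-beta, and LAMP1 and MCOLN1 hold the E-box in more than 1 place. Sequences are RefSeq windows of the build GRCh38.p14, 250 bases before to 50 after the gene's start, on the plus strand for all 4. Capitals mark GTCTG or CAGAC, a core sequence bound by SMAD proteins, in the first pair, and the E-box core CACGTG in the second pair.
ULK1, chr12:131894372-131894671: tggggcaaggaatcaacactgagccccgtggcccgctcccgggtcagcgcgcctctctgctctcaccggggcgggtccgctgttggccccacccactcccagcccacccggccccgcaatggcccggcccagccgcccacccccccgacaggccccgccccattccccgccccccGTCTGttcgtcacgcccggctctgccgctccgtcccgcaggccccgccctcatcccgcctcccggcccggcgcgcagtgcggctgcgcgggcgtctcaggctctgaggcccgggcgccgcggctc
GABARAPL1, chr12:10212627-10212926: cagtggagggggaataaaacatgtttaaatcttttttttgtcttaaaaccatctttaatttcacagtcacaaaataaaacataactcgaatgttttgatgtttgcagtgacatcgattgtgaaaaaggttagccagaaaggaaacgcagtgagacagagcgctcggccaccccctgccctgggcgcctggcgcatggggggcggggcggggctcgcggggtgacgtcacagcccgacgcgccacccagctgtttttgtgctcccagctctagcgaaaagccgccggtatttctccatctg
LAMP1, chr13:113296989-113297288: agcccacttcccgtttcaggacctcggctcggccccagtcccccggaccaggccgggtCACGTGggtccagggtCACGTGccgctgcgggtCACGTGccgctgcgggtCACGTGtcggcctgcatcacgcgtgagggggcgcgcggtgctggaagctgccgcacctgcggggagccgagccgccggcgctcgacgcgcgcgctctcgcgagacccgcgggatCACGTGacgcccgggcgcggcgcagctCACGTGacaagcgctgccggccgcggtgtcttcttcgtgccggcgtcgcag
MCOLN1, chr19:7522374-7522673: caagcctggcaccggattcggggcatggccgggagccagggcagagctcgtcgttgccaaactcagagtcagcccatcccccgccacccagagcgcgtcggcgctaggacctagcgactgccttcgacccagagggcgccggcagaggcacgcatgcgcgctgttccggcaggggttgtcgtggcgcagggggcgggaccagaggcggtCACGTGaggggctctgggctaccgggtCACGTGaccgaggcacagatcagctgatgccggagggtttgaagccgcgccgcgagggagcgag

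Of the 40 members, 34 had such a window. Only the first window listed for each member was searched, whereas the comparison counts every window of all genes, so these sets are not matched. CACGTG, which reads the same on both strands, stood in 5 of the 34 (14.7%), against 7.26% of all 35116 windows in the RefSeq table. The longer TCACGTGA, which contains CACGTG and is close to the element that TFEB binds, stood in 3 of 34 (8.82%), against 0.98% of all windows. The 5 genes were ATG14, ATG3, LAMP1, MCOLN1 and CTSD, and the 3 with the longer form were ATG3, LAMP1 and MCOLN1. The LAMP1 window held CACGTG at 6 places and the MCOLN1 window at 2. GTCTG or CAGAC, searched on both strands, stood in 14 of 34 windows (41.2%), against 45.3% of all windows, and the palindrome GTCTAGAC in 0 of 34, against 0.202%. ULK1 held GTCTG once, and the GABARAPL1 window held neither form. A match is a run of letters in this window, not a binding site.

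SFPQ itself was lower in siSFPQ libraries of every line, so the target checks the labels. It averaged 37.2 ± 11.5 FPKM in siSFPQ cells and 165 ± 59.5 FPKM in siCTL cells without TGF-beta (SD over the 6 lines; log2 change -2.10 ± 0.26, adjusted p = 0.00284). With TGF-beta it averaged 38.1 ± 10.4 FPKM in siSFPQ cells and 158 ± 59.0 FPKM in siCTL cells (log2 change -1.97 ± 0.25, adjusted p = 0.00232). The siSFPQ and siCTL values did not overlap in either setting. The amount left ranged from 9.49% of the siCTL level in HLE and 13.1% in SK-HEP1 to 40.4% in Huh1 and 45.2% in HepG2 without TGF-beta. Of 10 hepatocyte markers, all were at 1 FPKM or more in every Huh7 and HepG2 library, with sums of 12138 to 20400 FPKM, and Huh1 libraries summed to 1096 to 1791 FPKM. The sums were 14.5 to 24.8 FPKM in Hep3b, 27.6 to 117 FPKM in HLE and 20.4 to 26.3 FPKM in SK-HEP1 libraries. The Hep3B line is known to make plasma proteins of hepatocytes, so low sums in the libraries labelled Hep3b go against their label; Hep3b below means the libraries so labelled, and counts are also given without them. Endothelial markers were under 1 FPKM in all libraries. The 5 immune cell markers summed to 307 to 588 FPKM in Huh7 and 238 to 745 FPKM in HepG2 libraries, mostly from LYZ. In the other lines they summed to 2.06 to 11.9 FPKM. Depth, estimated from the smallest values above 0, ran from 0.351 to 1.73 times that of the median library, and the Huh7 siSFPQ library with TGF-beta and the HepG2 siSFPQ library without it (0.395) were the shallowest.

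Without TGF-beta, SFPQ knockdown moved 15 of the 40 members: 8 rose and 7 fell, against 21.8% of the 12015 genes tested (6.7% higher and 15.1% lower). With TGF-beta, 7 rose and 8 fell, against 30.4% of 12026 genes tested (8.51% higher and 21.9% lower). The members' median change was 0.03 without and 0.07 with TGF-beta, beside -0.07 and -0.09 over all genes tested. The 2 knockdown comparisons share no library but use the same 6 lines, so their calls are not independent. In both, 13 members were called in the same direction, which is 86.7% of those called in each, and 33 of 40 had the same sign; over the 11835 genes tested in both, 2162 were called in the same direction (83.1% and 59.6% of the calls without and with TGF-beta) and 10188 had the same sign. The 6 that rose in both were MAP1LC3B, ULK1, ATG14, WIPI2, ATG2A and CTSB, and the 7 that fell in both were OPTN, PIK3R4, UVRAG, ATG5, ATG7, ATG10 and ATG4C. In bulk RNA, a lower value can come from fewer cells that express a gene or from less RNA per cell, and these cannot be told apart. Without the Hep3b libraries, 7 rose and 5 fell without TGF-beta, against 17% of 11567 genes tested (568 higher and 1398 lower). With TGF-beta 7 rose and 7 fell, against 25.8% of 11572 genes tested (824 higher and 2162 lower). Other lines weighed more: without TGF-beta, 2 rose and 3 fell when HLE was left out, 3 and 3 when SK-HEP1 was, and 4 and 5 when Huh7 was. Over all genes tested, the share called also fell, to 11.9%, 11.9% and 14.9% in the same order. The balance of higher and lower calls depended on the scaling: without TGF-beta 12 members rose and 5 fell after scaling libraries to a common median ratio, and 10 rose and 5 fell after removing each library's GC trend, and with TGF-beta these were 11 and 7, and 12 and 7. Members gained, all as higher, were SQSTM1, ATG16L1, TFE3 and CTSD after median scaling and GABARAPL2 and ATG16L1 after GC correction without TGF-beta. With it they were ATG16L1, TFE3 and LAMP1 after either, ATG4D after median scaling, and GABARAPL2 and LAMP2 after GC correction. After either correction UVRAG and ATG4C were no longer called without TGF-beta, nor BECN1 with it. Over all genes, the calls without TGF-beta were 1145 higher and 1374 lower after median scaling and 1339 and 1302 after GC correction, against 805 and 1809 as deposited. With TGF-beta they were 1623 and 1699, and 1834 and 1565, against 1024 and 2628.

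**Figure D1:**
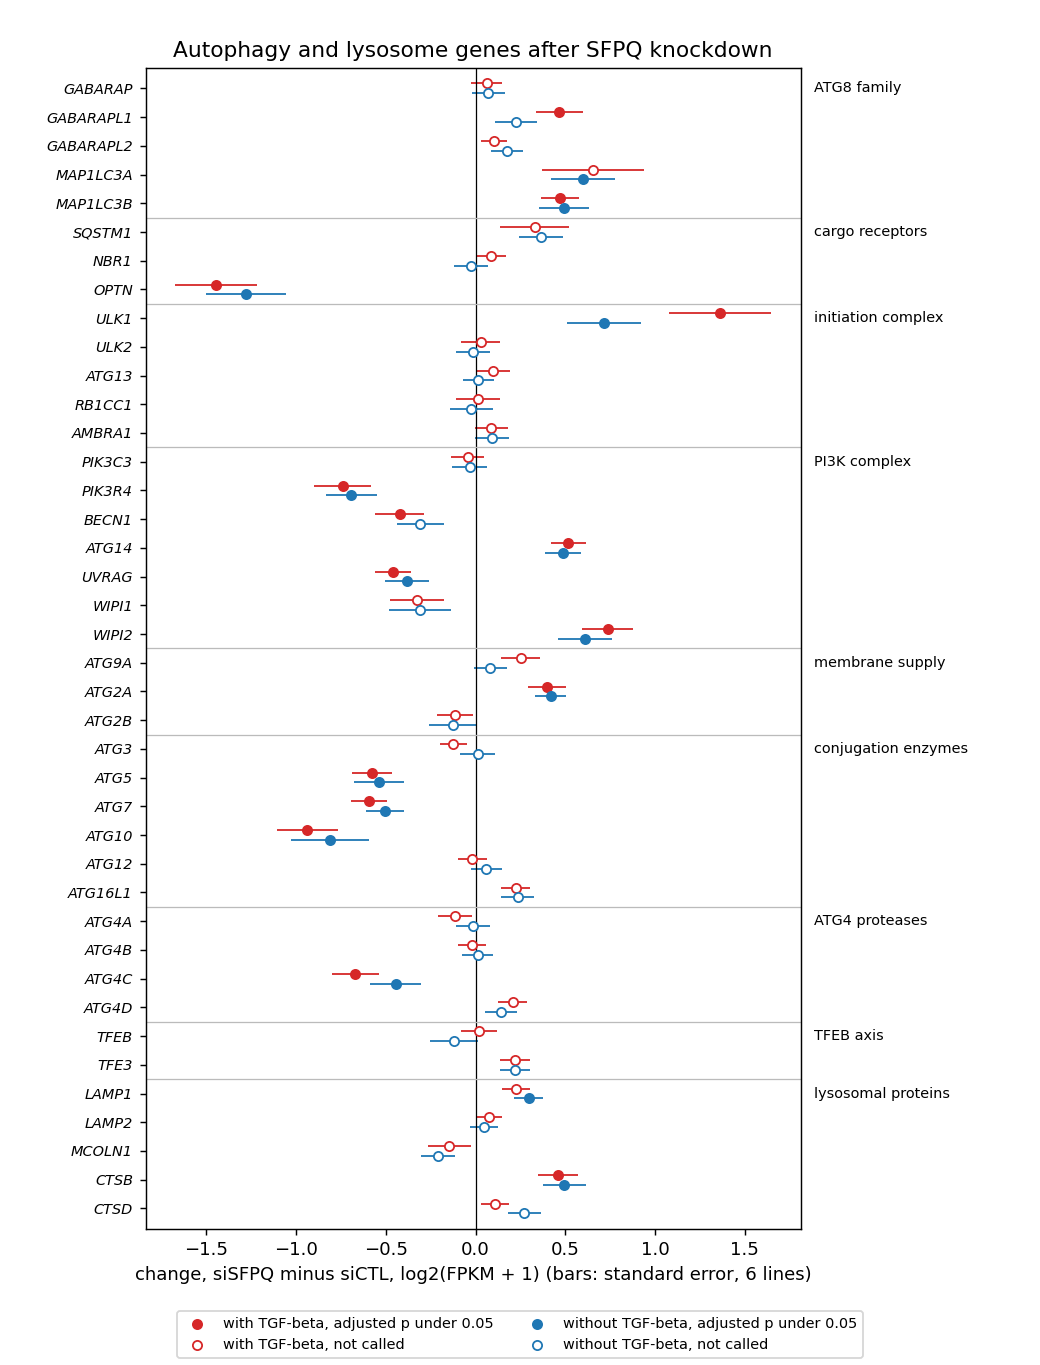
Change with SFPQ knockdown for each of the 40 members, siSFPQ minus siCTL on the log2(FPKM + 1) scale, grouped by role. Points are limma estimates from 6 lines, bars their moderated standard errors, and filled points passed an adjusted p of 0.05; OPTN lies lowest and ULK1 with TGF-beta highest.

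Among cargo receptors, OPTN fell in all 6 lines. Optineurin links ubiquitin-marked mitochondria and bacteria to ATG8 proteins. Its lowest, median and highest values without TGF-beta were 7.25 (SK-HEP1), 10.3 and 37.0 FPKM (Huh1) in siSFPQ cells, against 19.2 (Huh7), 33.3 and 57.6 FPKM (Huh1) in siCTL cells (log2 change -1.28 ± 0.22, adjusted p = 0.00703). With TGF-beta they were 5.85 (SK-HEP1), 9.75 and 44.4 FPKM (Huh1) in siSFPQ cells with TGF-beta, against 19.3 (Hep3b), 34.3 and 65.1 FPKM (Huh1) in siCTL cells with TGF-beta (log2 change -1.44 ± 0.23, adjusted p = 0.00408). The Huh1 siSFPQ libraries were the highest of their group and lay within the siCTL range, while the other 5 siSFPQ libraries lay below every siCTL library of the same setting. The per-line change without TGF-beta ran from -0.63 in Huh1 to -2.59 in SK-HEP1, and the call stood with any line left out in both settings. SQSTM1, the receptor p62, was not called (log2 change 0.37 ± 0.12, adjusted p = 0.0573 without TGF-beta and log2 change 0.33 ± 0.19, adjusted p = 0.218 with it). Without TGF-beta SQSTM1 was called higher after median scaling, in the fit that required 1 FPKM in every library, and without the Huh1 line. NBR1, a related receptor, changed by -0.03 ± 0.09 and 0.09 ± 0.08, and was not called.

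In the ATG8 family, whose proteins coat the autophagosome membrane, MAP1LC3B rose and 1 further member rose in each setting. MAP1LC3B encodes LC3B, the usual marker of autophagosomes. Its lowest, median and highest values without TGF-beta were 34.7 (Hep3b), 46.6 and 92.0 FPKM (Huh1) in siSFPQ cells, against 28.7 (HLE), 33.5 and 78.9 FPKM (Huh1) in siCTL cells (log2 change 0.49 ± 0.14, adjusted p = 0.0319). With TGF-beta they were 40.6 (Hep3b), 50.4 and 98.0 FPKM (Huh1) in siSFPQ cells with TGF-beta, against 24.5 (HLE), 36.8 and 85.3 FPKM (Huh1) in siCTL cells with TGF-beta (log2 change 0.47 ± 0.11, adjusted p = 0.0126). The Huh1 library was the highest of every group and the groups overlapped, while HepG2 without TGF-beta had the largest change at 1.25. All 6 lines were higher in both settings. The call without TGF-beta was lost in 3 omissions (adjusted p = 0.0585 without Huh7, 0.0771 without HLE and 0.0743 without SK-HEP1), and none was lost with TGF-beta. MAP1LC3B2, a near-identical copy, had 0.258 to 3.91 FPKM, and reads that fit both could have been split between them. MAP1LC3A, a second LC3 gene, rose without TGF-beta (log2 change 0.60 ± 0.18, adjusted p = 0.0389) but was listed at 0 in the Hep3b siSFPQ and siCTL libraries and was under 1 FPKM in all HepG2 libraries, so the levels behind the change are those of the other 4 lines. It was higher in 4 lines and lower in 1. The call was lost without Huh1 (adjusted p = 0.093), with a pseudocount of 0.1 or 0.5 (adjusted p = 0.143 and 0.0502) and with no filter on low values (adjusted p = 0.0963), and without Huh7, HLE or SK-HEP1 the gene did not pass the filter; it was called in 2 of 6 omissions, and with TGF-beta it was not called (log2 change 0.66 ± 0.28, adjusted p = 0.105). GABARAPL1 rose with TGF-beta present (log2 change 0.47 ± 0.13, adjusted p = 0.0256) and was not called in its absence (log2 change 0.22 ± 0.12, adjusted p = 0.19). The call was lost in 2 omissions (adjusted p = 0.0593 without Huh7 and 0.0701 without SK-HEP1). GABARAP and GABARAPL2 were called in neither, with changes of 0.06 to 0.18.

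Of the 5 genes of the initiation complex, ULK1 rose and the other 4 were not called. ULK1 is the kinase that starts autophagosome formation. Its lowest, median and highest values without TGF-beta were 14.9 (HLE), 34.1 and 105 FPKM (Huh1) in siSFPQ cells, against 6.50 (HLE), 15.6 and 64.2 FPKM (Huh1) in siCTL cells (log2 change 0.71 ± 0.21, adjusted p = 0.0355). It was higher in 5 of 6 lines, the groups overlapped, and in Hep3b it was lower by 0.41 on the log2 scale. With TGF-beta the values were 41.5 (HepG2), 75.4 and 268 FPKM (Huh1) in siSFPQ cells with TGF-beta, against 11.2 (HLE), 32.5 and 139 FPKM (Huh1) in siCTL cells with TGF-beta (log2 change 1.36 ± 0.29, adjusted p = 0.00991), higher in 6 of 6 lines, with overlap. The call with TGF-beta stood in all 6 omissions, whereas the call without it was lost in 5 (adjusted p = 0.0658 without Huh1, 0.088 without Huh7, 0.0507 without HepG2, 0.0933 without HLE and 0.0995 without SK-HEP1). ULK2, ATG13, RB1CC1 and AMBRA1, the paralogous kinase and the partners of the complex, changed by -0.02 to 0.10 over both settings.

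Genes of the lipid kinase complex moved in opposite directions. PIK3R4, the regulatory subunit, fell, with lowest, median and highest values without TGF-beta of 3.42 (SK-HEP1), 5.59 and 7.62 FPKM (Huh1) in siSFPQ cells, against 5.80 (HepG2), 9.91 and 11.1 FPKM (Hep3b) in siCTL cells (log2 change -0.69 ± 0.14, adjusted p = 0.0117). The fall was of like size with TGF-beta (log2 change -0.74 ± 0.16, adjusted p = 0.0102), and all lines were lower in both settings, although the ranges of the groups overlapped. ATG14, the subunit that directs the complex to autophagosome formation, rose: it had 5.83 (SK-HEP1), 9.01 and 17.4 FPKM (Huh7) in siSFPQ cells, against 3.59 (SK-HEP1), 7.17 and 9.89 FPKM (Huh7) in siCTL cells (log2 change 0.49 ± 0.10, adjusted p = 0.0116), and with TGF-beta the change was 0.52 ± 0.10 (adjusted p = 0.00663). All 6 lines were higher in both settings, within overlapping ranges. UVRAG, which takes the place of ATG14 in the endosomal form of the complex, fell with TGF-beta (log2 change -0.46 ± 0.10, adjusted p = 0.0104, lower in 6 of 6 lines). Without TGF-beta its change was -0.38 ± 0.12 at an adjusted p of 0.04999, just inside the threshold and lower in 5 of 6 lines, and the call was lost in 5 omissions (adjusted p = 0.108 without Hep3b, 0.0985 without Huh1, 0.0713 without HepG2, 0.129 without HLE and 0.119 without SK-HEP1). BECN1, the subunit Beclin 1, was called lower by the fit with TGF-beta (log2 change -0.42 ± 0.14, adjusted p = 0.0441). Without TGF-beta it changed by -0.31 ± 0.13 (adjusted p = 0.117). Its per-line changes with TGF-beta were -1.22 in SK-HEP1 and between -0.43 and -0.15 in the other lines. Without SK-HEP1 the change was -0.26 (adjusted p = 0.0488), and the call was lost in 4 other omissions (adjusted p = 0.0831 without Hep3b, 0.0691 without Huh1, 0.0586 without Huh7 and 0.0664 without HepG2). PIK3C3, the catalytic subunit, changed by -0.03 ± 0.10 and -0.04 ± 0.09.

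WIPI2, the phosphoinositide reader that recruits ATG16L1, rose in 6 of 6 lines in both settings. Its values without TGF-beta were 11.0 (HepG2), 26.2 and 27.7 FPKM (HLE) in siSFPQ cells, against 10.1 (HepG2), 15.5 and 20.1 FPKM (Huh7) in siCTL cells (log2 change 0.61 ± 0.15, adjusted p = 0.0204). With TGF-beta they were 14.4 (HepG2), 28.2 and 32.0 FPKM (Huh7) in siSFPQ cells with TGF-beta, against 10.0 (SK-HEP1), 15.2 and 22.4 FPKM (Huh7) in siCTL cells with TGF-beta (log2 change 0.74 ± 0.14, adjusted p = 0.00752). HepG2 was lowest in both siSFPQ groups and within the siCTL range; the call without TGF-beta was lost without HLE (adjusted p = 0.0584). WIPI1, its paralogue, was not called (-0.31 ± 0.17 and -0.33 ± 0.15), and its per-line changes ran in both directions. ATG2A, a lipid transfer protein at the growing membrane, rose: it had 9.06 (Huh7), 13.3 and 15.2 FPKM (HepG2) in siSFPQ cells, against 6.91 (Huh7), 9.78 and 10.8 FPKM (HepG2) in siCTL cells (log2 change 0.42 ± 0.09, adjusted p = 0.0118). With TGF-beta it changed by 0.40 ± 0.11 (adjusted p = 0.0224), a call lost without SK-HEP1 (adjusted p = 0.0511). All 6 lines were higher in both settings and the ranges overlapped. ATG2B and ATG9A, the scramblase of the membrane seed, were not called in either.

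Of the 6 conjugation enzymes and partners, ATG7, ATG5 and ATG10 fell and ATG3, ATG12 and ATG16L1 were not called. ATG7 is the E1-like enzyme that activates ATG12 and the ATG8 proteins. Its values without TGF-beta were 2.30 (Huh7), 2.84 and 5.89 FPKM (Huh1) in siSFPQ cells, against 3.13 (HepG2), 5.35 and 8.29 FPKM (Huh1) in siCTL cells (log2 change -0.51 ± 0.11, adjusted p = 0.0126). With TGF-beta they were 1.54 (Huh7), 2.65 and 5.43 FPKM (Huh1) in siSFPQ cells with TGF-beta, against 2.89 (HepG2), 4.98 and 8.36 FPKM (Huh1) in siCTL cells with TGF-beta (log2 change -0.59 ± 0.10, adjusted p = 0.00512). Every line was lower in both settings, Huh1 was highest throughout, the ranges overlapped, and the calls stood in every omission. ATG10, the E2-like enzyme for ATG12, was among the lowest members in level, with 0.412 (HLE), 1.39 and 3.43 FPKM (Huh7) in siSFPQ cells, against 2.03 (Hep3b), 2.60 and 6.10 FPKM (Huh7) in siCTL cells (log2 change -0.81 ± 0.22, adjusted p = 0.0274). With TGF-beta it had 0.375 (HLE), 1.11 and 1.82 FPKM (Huh7) in siSFPQ cells with TGF-beta, against 1.98 (HLE), 2.38 and 5.67 FPKM (Huh7) in siCTL cells with TGF-beta (log2 change -0.94 ± 0.17, adjusted p = 0.00584), and these groups did not overlap. ATG10 was 1 of 40 members without overlap in this comparison, against 0.773% of all genes tested. In the other pairwise comparisons 0 of 40 were without overlap, against 0.649% of all genes for knockdown without TGF-beta, 0% for TGF-beta in siSFPQ cells and 0.00822% in siCTL cells. Without TGF-beta HepG2 was slightly higher and the call was lost in 3 omissions (adjusted p = 0.0575 without Huh7, 0.0742 without HLE and 0.0502 without SK-HEP1). ATG5, the acceptor of ATG12, had 6.32 (HLE), 8.78 and 10.1 FPKM (Huh1) in siSFPQ cells, against 9.41 (HepG2), 12.4 and 18.6 FPKM (SK-HEP1) in siCTL cells (log2 change -0.54 ± 0.14, adjusted p = 0.0243), and with TGF-beta its change was -0.58 ± 0.11 (adjusted p = 0.0073). All lines were lower in both settings and the ranges overlapped; the call without TGF-beta was lost in 2 omissions (adjusted p = 0.068 without HLE and 0.0567 without SK-HEP1). ATG16L1, the scaffold that holds the ATG12-ATG5 pair on the membrane, changed by 0.24 ± 0.09 and 0.22 ± 0.08 (adjusted p = 0.0946 and 0.0611), and was called higher in both settings after median scaling or GC correction.

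Of the 4 ATG4 proteases, which trim ATG8 proteins before conjugation and release them after it, ATG4C fell. It had 1.10 (HLE), 2.16 and 2.90 FPKM (Hep3b) in siSFPQ cells with TGF-beta, against 2.64 (Huh1), 3.68 and 5.07 FPKM (Hep3b) in siCTL cells with TGF-beta (log2 change -0.67 ± 0.13, adjusted p = 0.00749, lower in 6 of 6 lines). Huh1 and HepG2 changed least and the ranges overlapped. Without TGF-beta it changed by -0.45 ± 0.14 (adjusted p = 0.0488, lower in 5 of 6 lines), a call lost in 5 omissions (adjusted p = 0.0646 without Hep3b, 0.107 without Huh7, 0.0538 without HepG2, 0.124 without HLE and 0.121 without SK-HEP1). ATG4A, ATG4B and ATG4D, with changes of -0.12 to 0.21, were not called.

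**Figure D2:**
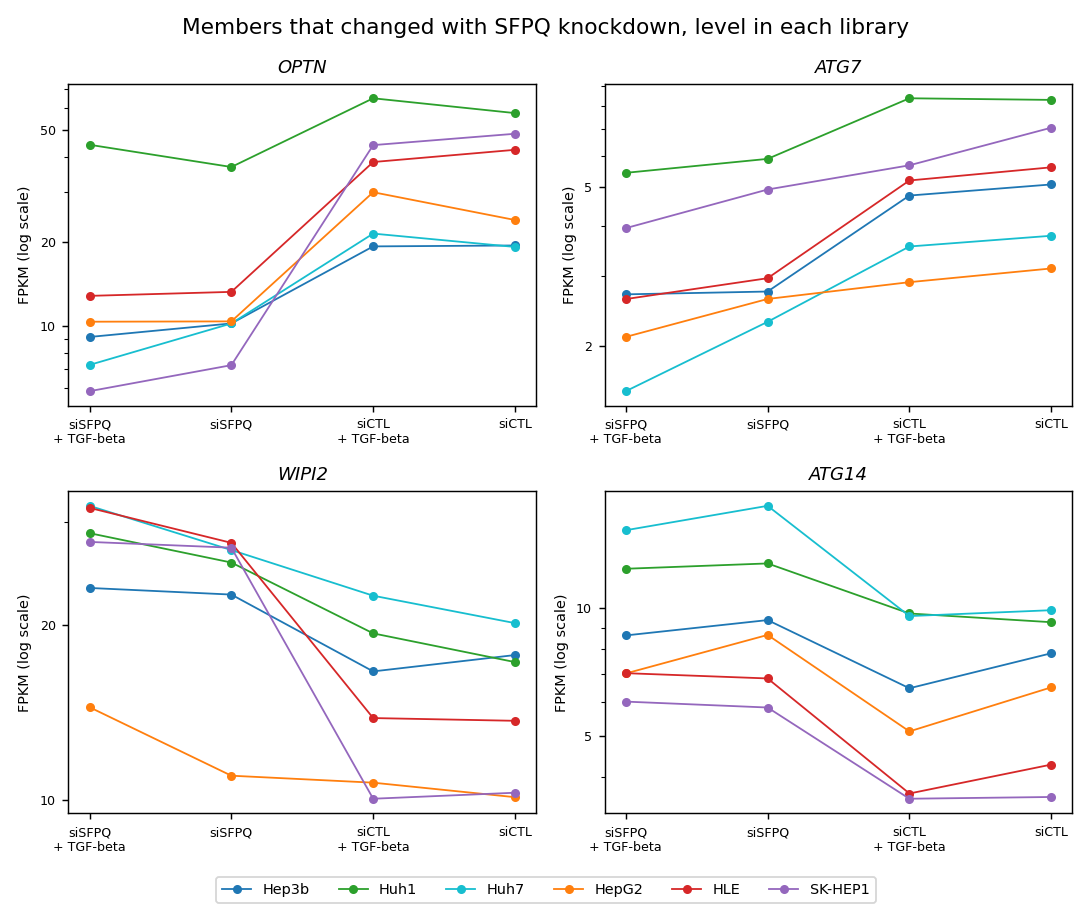
OPTN, ATG7, WIPI2 and ATG14 in each library, FPKM on a log scale, with each line joined across the 4 groups; these are members called in both knockdown comparisons. In every line OPTN and ATG7 are lower, and WIPI2 and ATG14 higher, in siSFPQ cells than in siCTL cells of the same TGF-beta setting.

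Of the 5 lysosomal proteins, 2 rose without TGF-beta and 1 with it, and neither TFEB nor TFE3 was called, although TFE3 was called higher after median scaling in both settings and after GC correction with TGF-beta. CTSB, the protease cathepsin B, rose in both settings: it had 83.3 (Hep3b), 193 and 399 FPKM (HLE) in siSFPQ cells, against 52.9 (Hep3b), 124 and 277 FPKM (HepG2) in siCTL cells (log2 change 0.49 ± 0.12, adjusted p = 0.0202), and with TGF-beta its change was 0.46 ± 0.11 (adjusted p = 0.016). HepG2 was the 1 line that was not higher in either setting, the ranges overlapped, and the call without TGF-beta was lost in 2 omissions (adjusted p = 0.0554 without HLE and 0.0595 without SK-HEP1). LAMP1, a glycoprotein that lines the lysosomal membrane, rose without TGF-beta, with 112 (Huh1), 151 and 255 FPKM (Hep3b) in siSFPQ cells, against 90.7 (SK-HEP1), 123 and 211 FPKM (Hep3b) in siCTL cells (log2 change 0.30 ± 0.08, adjusted p = 0.0318, higher in 6 of 6 lines with overlapping ranges). That call was lost in 5 omissions (adjusted p = 0.0675 without Hep3b, 0.054 without Huh1, 0.0693 without Huh7, 0.0793 without HLE and 0.0797 without SK-HEP1), and with TGF-beta it was not called (log2 change 0.22 ± 0.08, adjusted p = 0.0549). CTSD (cathepsin D), LAMP2 and the calcium channel MCOLN1 were not called, with changes of -0.21 to 0.27. TFEB changed by -0.12 ± 0.13 and 0.02 ± 0.10 and TFE3 by 0.22 ± 0.08 and 0.22 ± 0.09 without and with TGF-beta.

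The size of the knockdown changes differed between lines. Of the 15 called members, 12 without TGF-beta and 14 with it had their largest change in HLE or SK-HEP1, the lines that kept least SFPQ. These members were called from the same line changes, and the like share over all called genes was not counted. Calls over all genes without TGF-beta were 382 higher and 996 lower when HLE was left out. They were 413 and 983 when SK-HEP1 was, against 805 and 1809 with all lines. The other omissions left at least 557 higher and 1139 lower. The median change of the called members, taken in the direction of the call, was 0.74 in HLE and 0.87 in SK-HEP1 without TGF-beta, against 0.19 in HepG2, 0.33 in Hep3b, 0.42 in Huh1 and 0.54 in Huh7. With TGF-beta it was 0.96 in HLE and 0.78 in SK-HEP1, against 0.36 to 0.50 in the other 4. HLE and SK-HEP1 also had low hepatocyte marker sums, as did the libraries labelled Hep3b, and the part of any of these in the size of the change was not tested.

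Members called lower and higher were also set against gene length. Gene span, the distance from first to last annotated base in GENCODE 29 matched by symbol, had a median of 181 kb over the 8 members called lower in either setting, 26.4 kb over the 9 called higher and 36.6 kb over the 23 called in neither. ATG5, ATG7, ATG10 and UVRAG spanned 280.4 to 328 kb, and no member called higher spanned more than 45.5 kb. Their transcripts had a median GC content of 44.3%, 52.8% and 49.4% in the same order. Over all 40 members the rank correlation of the change with span was -0.51 without and -0.48 with TGF-beta, beside -0.13 and -0.08 over the 10778 and 10779 tested genes with an annotated span, and with GC content it was 0.51 and 0.54, beside 0.14 and 0.17. These are descriptions across genes that share libraries and base composition. Over all genes, the quartile of genes with the longest spans had a median change of -0.13 and that with the shortest -0.04 without TGF-beta, and with TGF-beta these were -0.12 and -0.08.

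**Figure D3:**
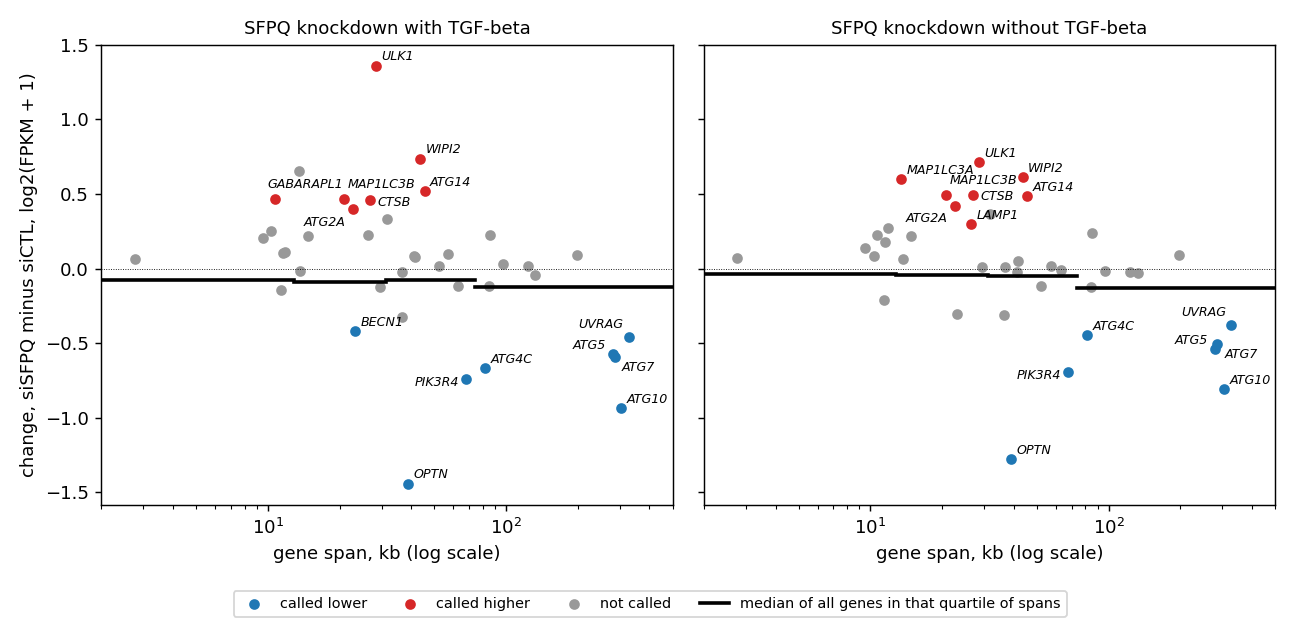
Knockdown change of each member against its gene span in kb on a log scale, with TGF-beta on the left and without it on the right; black bars give the median change of all genes in each quartile of spans. ATG5, ATG7, ATG10 and UVRAG stand at the long end with negative changes, and OPTN is low at 38.9 kb.

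TGF-beta raised GABARAPL1 and ULK1 in siSFPQ cells, 2 of 40 members, against 5.3% of the 11888 genes tested (2.3% higher and 2.99% lower). In siCTL cells it raised GABARAPL1 alone among the 40, against 0.0904% of 12169 genes tested (0.0657% higher and 0.0247% lower). In both, limma called 0 members lower, and at an unadjusted p under 0.05 these were 2 members in siSFPQ cells and 1 in siCTL cells. The knockdown and TGF-beta comparisons share libraries, so a high siSFPQ group with TGF-beta enters both. ULK1 stood in siSFPQ cells with TGF-beta at 70.0, 268, 65.7, 41.5, 80.8 and 175 FPKM in the lines Hep3b, Huh1, Huh7 and HepG2, HLE and SK-HEP1. In siSFPQ cells without it, the same lines had 38.0, 105, 30.3, 21.5, 14.9 and 43.6 FPKM. Each line was higher with TGF-beta, and the groups overlapped: untreated Huh1 was above 4 of the treated lines, and untreated SK-HEP1 above treated HepG2. In siCTL cells the values were 59.0, 139, 27.9, 23.1, 11.2 and 37.0 FPKM with TGF-beta and 50.8, 64.2, 15.6, 15.7, 6.50 and 14.1 FPKM without. Again each line was higher with TGF-beta and the groups overlapped. The change was 1.43 ± 0.20 in siSFPQ cells (adjusted p = 0.0225) and 0.78 ± 0.13 in siCTL cells (adjusted p = 0.0663, not called). The siSFPQ call was lost without Huh1 (adjusted p = 0.0627), and in siCTL cells ULK1 was called when the Hep3b line was left out (adjusted p = 0.0438) and in the fit that required 1 FPKM in every library.

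GABARAPL1 encodes an ATG8 protein of the GABARAP branch. In siSFPQ cells it stood at 117, 33.7, 48.2, 24.7, 113 and 348 FPKM with TGF-beta, with the lines in the same order, and at 70.9, 22.9, 32.1, 20.1, 65.1 and 209 FPKM without. In siCTL cells it stood at 101, 28.3, 33.3, 23.6, 51.2 and 225 FPKM with TGF-beta and at 86.4, 21.2, 24.0, 18.2, 40.4 and 169.9 FPKM without. SK-HEP1 was highest and HepG2 lowest in every group, and each line was higher with TGF-beta in both backgrounds while the groups overlapped. The change was 0.60 ± 0.07 in siSFPQ cells (adjusted p = 0.0167), called in every omission, and 0.36 ± 0.04 in siCTL cells (adjusted p = 0.0427). The siCTL call was lost in 5 omissions (adjusted p = 0.161 without Huh1, 0.0521 without Huh7, 0.0985 without HepG2, 0.12 without HLE and 0.117 without SK-HEP1). Its near-identical copy GABARAPL3 had at most 0.0781 FPKM. ATG9A changed by 0.34 ± 0.08 in siSFPQ cells (adjusted p = 0.0511) and 0.17 ± 0.05 in siCTL cells, with 6 of 6 lines higher in both. TFEB changed by 0.36 ± 0.09 in siSFPQ cells (adjusted p = 0.0577), also higher in 6 of 6 lines, and by 0.22 ± 0.16 in siCTL cells with 4 of 6 higher. Both missed the threshold and are named after their values were seen; in siSFPQ cells both were called after median scaling. The other 36 members changed by -0.25 to 0.27 in siSFPQ cells and by -0.21 to 0.21 in siCTL cells. Among 5 stellate and fibroblast markers, COL1A1, a known TGF-beta responsive gene, and PDGFRB were called higher with TGF-beta in siSFPQ cells (changes 2.61 ± 0.45 and 1.25 ± 0.22). Both were also called higher with knockdown in the presence of TGF-beta (0.98 ± 0.18 and 1.05 ± 0.16). For TGF-beta in siCTL cells limma called 0 of the 3 markers tested, and 2 were higher at an unadjusted p under 0.05. COL1A1 and PDGFRB were nonetheless higher with TGF-beta in siCTL cells of every line. In HLE siCTL cells COL1A1 had 14.6 FPKM with TGF-beta and 2.70 FPKM without, and PDGFRB had 1.81 and 1.22 FPKM. The 5 markers summed to 40.4 to 115 FPKM in siSFPQ cells with TGF-beta, 4.41 to 62.9 FPKM in siSFPQ cells, 30.2 to 84.2 FPKM in siCTL cells with TGF-beta and 2.03 to 72.0 FPKM in siCTL cells. DCN was at 0 in 12 libraries and LUM in 7, but all 5 markers were at 1 FPKM or more in every Hep3b library. In Huh1, LUM had 60.5 to 77.1 FPKM. ACTA2 fell with knockdown in both settings (-0.37 ± 0.12 and -0.42 ± 0.14), and the part of stellate or fibroblast cells in the members' changes was not tested.

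**Figure D4:**
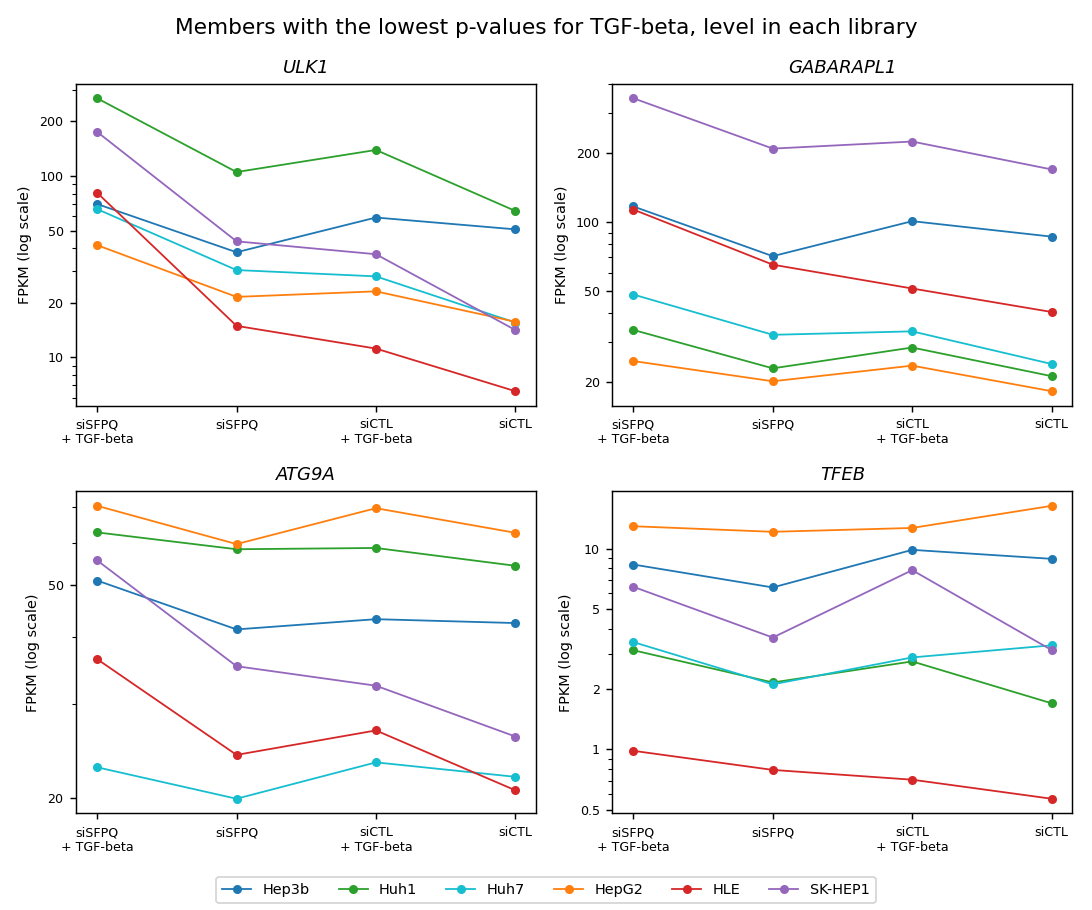
ULK1, GABARAPL1, ATG9A and TFEB in each library, FPKM on a log scale, with each line joined across the 4 groups. In all 6 lines ULK1 and GABARAPL1 are higher with TGF-beta than without it, in siSFPQ and in siCTL cells, and the siSFPQ cells with TGF-beta are highest for ULK1.

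The difference of the TGF-beta response between siSFPQ and siCTL cells was called for 0 of the 40 members by limma, against 0.252% of 13502 genes tested (0.222% higher and 0.0296% lower). An unadjusted p under 0.05 was found for 5 of the 40 members and for 1684 of the 13502 genes, a like share. ULK1 had the smallest p of the members: its response was larger in siSFPQ cells by 0.65 ± 0.16 (unadjusted p = 0.003, adjusted p = 0.204), with the same sign in 6 of 6 lines. HLE contributed most, at 1.66, and without HLE the difference was 0.44. GABARAPL1 differed by 0.24 ± 0.08 (adjusted p = 0.284, 5 of 6 lines), ATG9A by 0.17 ± 0.06, ATG4C by -0.22 ± 0.08 and CTSD by -0.16 ± 0.07. None of these differences passed the test.

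The lines differed in the levels of several members. Over the 24 libraries the highest mean levels were those of SQSTM1 (684 FPKM), CTSD (297 FPKM) and GABARAP (253 FPKM), and the lowest those of ULK2 (2.28 FPKM), ATG10 (2.33 FPKM) and ATG4C (2.83 FPKM). The range of the 6 line means on the log2(FPKM + 1) scale was largest for MAP1LC3A (5.26), followed by GABARAPL1 (3.36), SQSTM1 (3.05) and TFEB (3.04). MAP1LC3A averaged 39.1 FPKM in HLE and 25.4 FPKM in SK-HEP1, 3.14 and 2.97 FPKM in Huh1 and Huh7, and 0.061 and 0.0195 FPKM in HepG2 and Hep3b. SQSTM1 averaged 2145 FPKM in Huh1, 709.9 FPKM in HLE and 264 to 349 FPKM in the other 4 lines. GABARAPL1 averaged 238 FPKM in SK-HEP1 and 21.6 FPKM in HepG2, and TFEB 13.5 FPKM in HepG2 and 0.763 FPKM in HLE. ATG5 varied least, with a range of 0.52. The median range was 1.25 over the 40 members and 1.53 over 13502 genes, and 29 members had a range above 1.

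**Figure D5:**
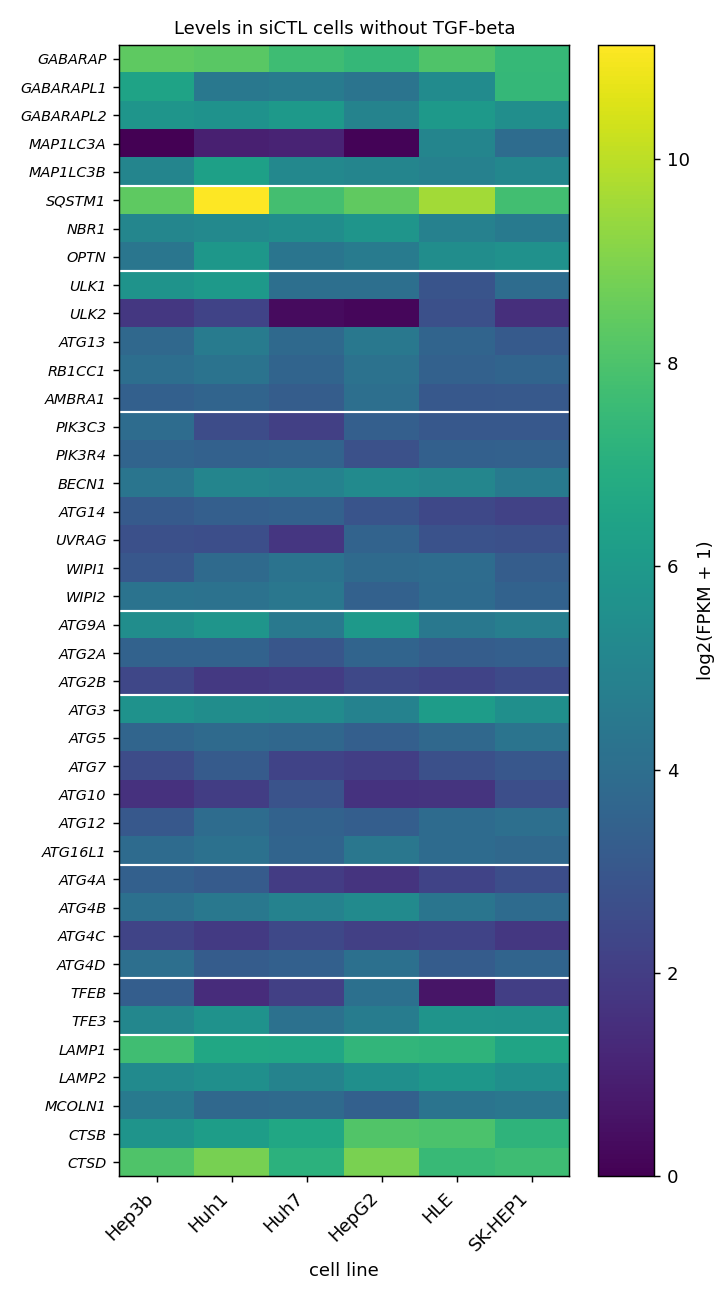
Level of each member in the siCTL library without TGF-beta of each line, as log2(FPKM + 1), with white lines between roles. SQSTM1 in Huh1 is the brightest cell, and MAP1LC3A is darkest in Hep3b and HepG2.

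Other genes of the route, 175 in the table in 10 lists that complete the members' roles, gave these counts: 17 of 162 tested rose and 20 fell without TGF-beta (22.8%, against 21.8% of all genes), and 13 of 161 rose and 39 fell with it (32.3%, against 30.4%). These shares are near those of all genes, so the genes named next are given as values and not as a change of the lists. Counts of single lists below stand beside 6.7% higher and 15.1% lower over all genes without TGF-beta, and 8.51% and 21.9% with it. Over the 10 lists together the median change was 0.01 without and -0.05 with TGF-beta. Of 13 selective autophagy receptors tested, 2 rose and 5 fell in both settings. TAX1BP1, a receptor for ubiquitin-marked aggregates, rose by 0.64 ± 0.09 without and 0.68 ± 0.12 with TGF-beta. The mitophagy receptors FUNDC1 (-0.92 ± 0.16 and -0.89 ± 0.14) and BCL2L13 (-0.86 ± 0.12 and -0.87 ± 0.14) and the endoplasmic reticulum receptor CCPG1 (-0.76 ± 0.12 and -0.76 ± 0.08) fell. CALCOCO2, a receptor in the clearance of bacteria, was the other that rose (0.32 ± 0.09 and 0.37 ± 0.11), named after its values were seen, and 6 of the 13 were called in neither setting.

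Of 26 nutrient-sensing genes tested, 4 fell and limma called 0 higher without TGF-beta, with 0 higher also at an unadjusted p under 0.05, and 2 rose and 7 fell with it. LAMTOR1 (-0.45 ± 0.11 and -0.59 ± 0.11) and LAMTOR2 (-0.38 ± 0.09 and -0.60 ± 0.08), parts of the Ragulator complex that anchors mTORC1 to the lysosome, fell in both settings, as did PRKAG1, a subunit of the energy sensor AMPK (-0.51 ± 0.14 and -0.53 ± 0.14). RPTOR, the mTORC1 scaffold, fell in both (-0.38 ± 0.10 and -0.38 ± 0.12), and FNIP2, a folliculin partner, rose with TGF-beta (0.61 ± 0.13). WDR45, a reader of phosphoinositides like the WIPI proteins, rose (0.49 ± 0.10 and 0.50 ± 0.10), and its relative WDR45B fell (-0.28 ± 0.09 and -0.29 ± 0.09). In the fusion list, PLEKHM1, an adaptor between late endosomes and HOPS, rose (0.57 ± 0.13 and 0.60 ± 0.15), and VPS16 (-0.42 ± 0.12 and -0.53 ± 0.12) and VPS11 (-0.34 ± 0.10 and -0.40 ± 0.10), tethering subunits of the HOPS complex, fell. RAB7A, the small GTPase of late endosomes, fell with TGF-beta (-0.47 ± 0.12) and VAMP8, a fusion SNARE, fell in both settings (-0.36 ± 0.11 and -0.43 ± 0.13). Among sorting genes, the receptor IGF2R rose (0.50 ± 0.09 and 0.46 ± 0.11) and GNPTG (-0.47 ± 0.08 and -0.48 ± 0.10), AP1G1 (-0.61 ± 0.13 and -0.62 ± 0.13), and SORT1 (-0.49 ± 0.12 and -0.40 ± 0.13) fell. M6PR fell with TGF-beta (-0.21 ± 0.07). TECPR1 was called lower with TGF-beta in the list of further conjugation genes (-0.27 ± 0.09).

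Of 43 lysosomal hydrolases tested, 7 rose and 4 fell without TGF-beta, against 21.8% of all genes called. With TGF-beta 4 rose and 7 fell, against 30.4% of all genes. PPT1 (-0.65 ± 0.15 and -0.77 ± 0.14) was among those that fell in both. PLA2G15 (0.48 ± 0.10 and 0.46 ± 0.13) rose in both, and CTSK (0.45 ± 0.10) and IDS (0.36 ± 0.09) rose with TGF-beta. Of lysosomal membrane proteins, the chloride transporter CLCN7 (0.46 ± 0.08 and 0.40 ± 0.12) rose in both. SLC17A5 (0.45 ± 0.13) and CD68 (0.36 ± 0.11) rose without TGF-beta, and TMEM175 (-0.43 ± 0.10), CLN3 (-0.30 ± 0.08) and TPCN1 (-0.31 ± 0.09) fell with it. Of 18 subunits of the V-ATPase, the proton pump of the lysosome, 1 rose without TGF-beta (ATP6AP1, 0.32 ± 0.10) and 5 fell with it, among them ATP6V0E2 (-0.72 ± 0.10), ATP6V1H (-0.36 ± 0.08), ATP6V0E1 (-0.32 ± 0.09) and ATP6V1E1 (-0.30 ± 0.09). For TGF-beta in siSFPQ cells, 160 of the other genes of the route were tested. At an unadjusted p under 0.05, 9 of them were higher and 38 lower (47 in all, beside 3367 of the 11888 genes tested). limma called 0 higher and 9 lower, 5.62% in all, against 5.3% of all genes (2.3% higher and 2.99% lower). Each of the 9 was lower in 6 of 6 lines. Among them were the hydrolases ASAH1 (-0.45 ± 0.06), CTSC (-0.48 ± 0.08) and LIPA (-0.43 ± 0.10), the pump subunits ATP6V0E2 (-0.61 ± 0.11), ATP6V1A (-0.32 ± 0.07) and ATP6V1H (-0.25 ± 0.06), TMEM192 (-0.37 ± 0.08) and MLST8 (-0.34 ± 0.06). In siCTL cells limma called 0 of 164, and 21 had an unadjusted p under 0.05, beside 1908 of the 12169 genes tested.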

How the data were processed

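The authors deposited 1 table of FPKM. Its name speaks of raw counts, but the values are not whole (0.0192% were) and the smallest values of low genes fell with transcript length (Spearman's rho -0.821 to -0.33 over 24 choices of genes; fitted log-log slopes of -0.804 to 0.169 do not fix the exact relation). TopHat2 2.1.1 and Cufflinks 2.2.1 on hg19 made the FPKM, per the submitters' processing notes; the annotation used, and the settings, are not given in sources used here. Columns were matched to samples by title; 2 empty columns matched none and were not used. FPKM under 1e-06 were set to 0, and 1589 short RNA rows were left out.

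limma 3.58.1 (R 4.3.3) was fitted to log2(FPKM + 1) of the 12 libraries of each pair of groups (24 for the interaction), with the line as a block, robust eBayes with a mean trend, and p-values adjusted by Benjamini-Hochberg across the genes with at least 6 libraries at 1 FPKM or more. The fit was run on simulated data with independent noise and the same change in every line. That setting cannot test changes that differ between lines. Lines pair the libraries by label: deviations from group means correlated at 0.795 to 0.972 within a line and at -0.472 to 0.373 between libraries of another line and group, and 0 pairs of libraries were identical. Fits have 5 residual degrees of freedom. Depth is relative only, so no counting intervals are given.

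The members, the lists of other genes, and the motifs, promoters and span shown were chosen with earlier results of these data known. Members were given with values where called and among the 3 smallest p of their role in a comparison; of each list, the 4 called genes with the smallest p per knockdown comparison were named, except some that are not reported here. GC content and span came from GENCODE 29 (another build, names only; 89.7% of tested genes matched), and promoters from RefSeq. Alternatives varied the pseudocount (0.1, 0.5), filter, scaling, GC trend, short RNA rows, variance model, lines and block.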

Additional observations from a re-analysis of the deposited data

Results flagged for a closer look

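Of 33 sets of 6 per-line changes checked, 1 held a line far from the others. With TGF-beta, BECN1 changed by -1.22 on the log2 scale in SK-HEP1 with SFPQ knockdown, against -0.43 to -0.15 in the other 5 lines. The gap to the nearest line was 0.745 of the whole range, above Dixon's 95% critical value for 6 values. Chance flags about 1 in 20 such sets.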

How the results depend on the processing

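Members called in a comparison, and ULK1, GABARAPL1, ATG9A and (in siSFPQ cells) TFEB where given for TGF-beta or its interaction, kept their direction under each alternative that gave a value; uncalled members near 0 were not followed. With each line left out in turn, members called higher and lower with knockdown were 2 to 8 and 3 to 6 without TGF-beta and 5 to 8 and 7 to 8 with it; TGF-beta called 1 to 2 higher in siSFPQ and 0 to 2 in siCTL cells. All genes called ranged over these omissions from 1378 to 2217 and 2396 to 2986 for knockdown without and with TGF-beta, 34 to 414 for TGF-beta in siSFPQ cells, 0 to 31 in siCTL cells and 8 to 28 for the interaction. With no filter on low values, knockdown without TGF-beta called 2 members higher, 3 lower and 1151 genes, knockdown with it 2408 genes, TGF-beta in siSFPQ cells 0 members and 15 genes, in siCTL cells 0 and 0, and the interaction 4 genes. Without Huh7 and HepG2 together, knockdown called 2 members higher and 1096 genes without TGF-beta, and 5 members lower and 1656 genes with it; TGF-beta called 1 member lower (CTSD) and 67 genes in siSFPQ cells, and 0 members and 4 genes in siCTL cells. Median scaling gave 11 members higher for knockdown with TGF-beta and 4 for TGF-beta in siSFPQ cells, GC correction 12 members and, in siCTL cells, 5 genes; with it the median change of all genes for knockdown with TGF-beta was 0.02, against -0.09 as deposited. Requiring 1 FPKM in every library gave 2 members and 38 genes in siCTL cells. Keeping short RNA rows gave 341 genes for TGF-beta in siSFPQ cells, 0 members and 1 gene in siCTL cells and 18 for the interaction. Plain eBayes gave 0 members and 1 gene in siCTL cells and 13 genes for the interaction, and a pseudocount of 0.1 gave 13 there as well. Without the replicate block of lines, limma called 0 genes and 0 members in all 5 comparisons, though 633, 736, 47 and 12 genes had unadjusted p-values under 0.05 in the pairwise ones; lines differ in level, so calls rest on the pairing. The causes of the other moves were not tested. With 6 lines and unknown absolute depth, members under about 1 FPKM (MAP1LC3A, ULK2, TFEB and ATG10 in some lines) are measured least precisely.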
